A study of Mus musculus with 13 samples.

Results

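Transcripts of 10 genes of the ADAMTS family were followed through experimental membranous nephropathy (MN) in mouse glomeruli. The members were the rows named *Adamts1*, *Adamts2*, *Adamts4*, *Adamts5*, *Adamts9*, *Adamts10*, *Adamts15*, *Adamts16*, *Adamtsl2* and *Adamtsl4* in a table of 35967 gene symbols, taken by name. They were chosen with earlier results of these data known. At day 5 of MN, 4 of 9 tested members passed the test and were higher than control, as were 2.42% of all tested genes. *Adamtsl2* was at 2.31-fold of control, *Adamts9* at 2.20-fold, *Adamts16* at 1.64-fold and *Adamts1* at 1.60-fold. *Adamts16* passed in 6 of 13 fits that left out 1 library, and the other 3 members in all 13. No member passed the test in either direction at day 1.

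Wildtype male Balb/c mice had received 2 mg of rabbit IgG intraperitoneally, and the labels do not give their age. The IgG was either preimmune (control, n = 5) or an IgG against THSD7A, a podocyte surface protein and target antigen of human MN, with glomeruli collected at day 1 (day 1 MN, n = 4) or day 5 (day 5 MN, n = 4). Each library came from the glomeruli of 1 mouse, isolated with magnetic beads. Control mice of both days formed 1 group, and the labels do not give the day of each control mouse. The model is a passive transfer, in which the antibody comes from rabbits and not from the mouse. All 6 podocyte, 6 glomerular endothelial and 6 mesangial markers were above 0 in every library. The libraries held whole glomeruli, so a lower or higher transcript level from a changed number of cells and from a changed amount of RNA per cell cannot be told apart.

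ADAMTS proteins (a disintegrin and metalloproteinase with thrombospondin motifs) are secreted zinc proteases that bind to the extracellular matrix through their thrombospondin type 1 repeats and ancillary domains. They are made with a prodomain that furin-type convertases remove, and tissue inhibitors of metalloproteinases, above all TIMP3, block several of them. Their best known substrates are the large aggregating proteoglycans aggrecan, versican and brevican, and the procollagens. ADAMTS-like proteins carry the repeats without a protease domain and are known as matrix proteins that associate with fibrillin microfibrils. The thrombospondin type 1 repeat is also the repeat that gives THSD7A its name.

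Values are TPM, which state the abundance of transcripts as a share of their library and are corrected for transcript length, so that levels can be set beside each other between genes. Differences between groups were tested with limma on log2(scaled TPM + 0.5) over the 14322 genes that reached 1 TPM in 4 or more libraries, with Benjamini-Hochberg adjustment over all of them. A gene was called where its adjusted p was under 0.05 and its log2 fold change exceeded 0.5 in size. Of the members, 9 were tested. *Adamts4* stayed below 1 TPM in every library and was not tested, 8 members were at 1 TPM or more in every library, and *Adamts15* entered the test with values around that limit in all groups. The comparisons of day 1 and day 5 share the 5 control libraries, and both MN groups recur in the comparison of day 5 with day 1, so these comparisons are not independent of each other.

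In control glomeruli the members spanned nearly the whole range of tested genes. *Adamts1* and *Adamts5* had the highest levels, at percentiles 93.0 and 92.1 of the tested genes, and their libraries overlapped in range. *Adamts10* followed at percentile 74.0 and *Adamts16* at percentile 49.4. *Adamtsl2* and *Adamtsl4*, which overlapped with each other, lay at percentiles 35.4 and 33.3, above *Adamts9* at 27.9 and *Adamts2* at 17.8. *Adamts15* was near the lower limit of testing, at percentile 3.39, and *Adamts4* was lower still. At day 5 *Adamts1* and *Adamts5* no longer overlapped. The pairs of neighbours in level that did overlap at day 5 were *Adamts16* with *Adamtsl2*, *Adamtsl4* with *Adamts9*, and *Adamts15* with *Adamts4*.

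**Figure D1:**
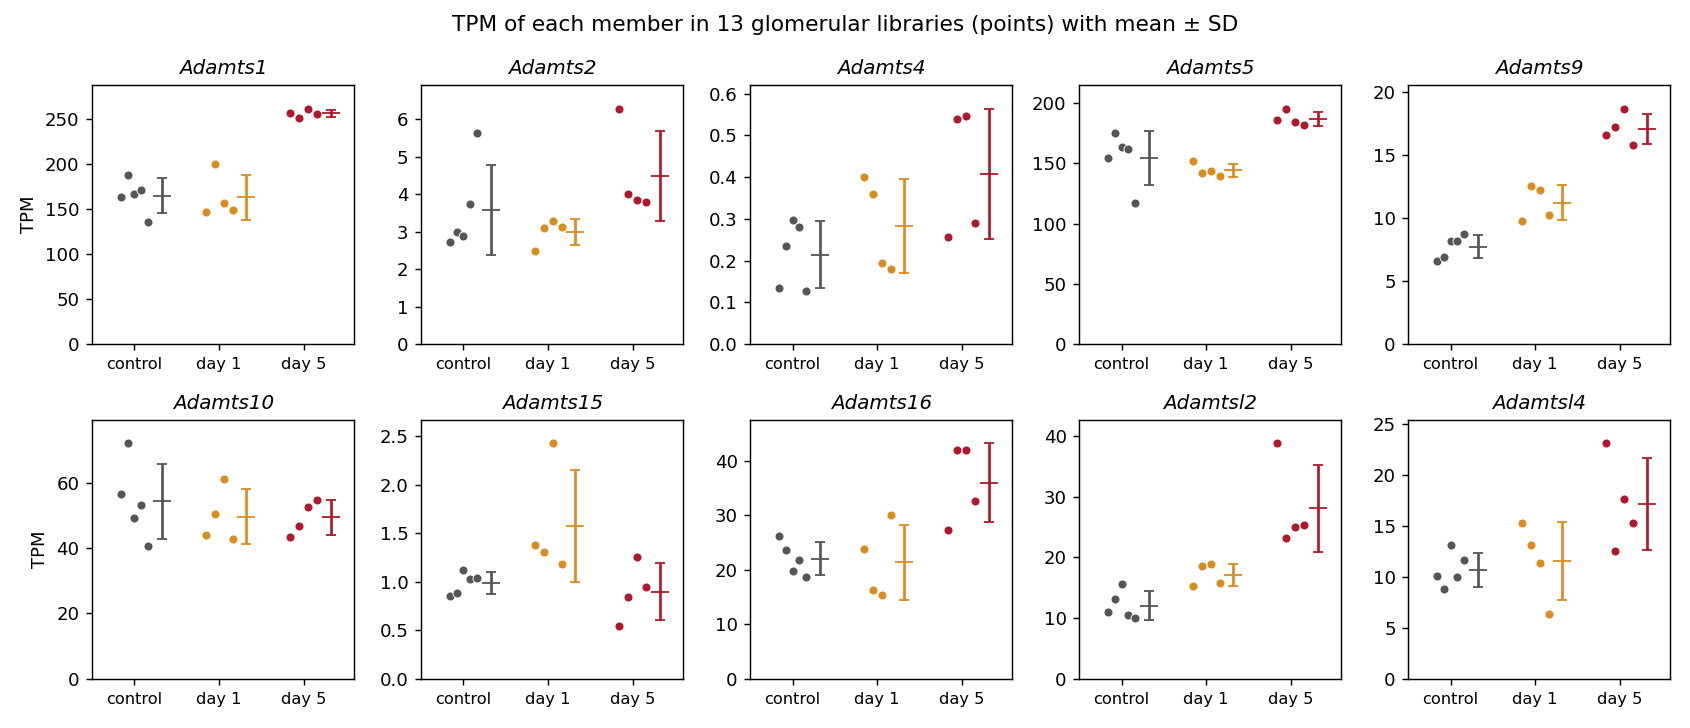
TPM of each member (vertical axes, from 0, on a scale of their own) in control, day 1 MN and day 5 MN glomeruli. Points are libraries, 1 per mouse (n = 5, 4 and 4), and bars give the mean ± SD. *Adamts9* lies higher in every day 1 MN library than in any control library and higher again in every day 5 MN library, whereas *Adamts1* lies apart at day 5 only and *Adamts10* overlaps in all groups.

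*Adamts1* and *Adamts5* are neighbours on chromosome 16 (GRCm39), both on the minus strand. *Adamts1* spans 85590579 to 85600009 in 9 exons and *Adamts5* spans 85653061 to 85698716, with 53051 bases and 0 protein-coding genes between them. Both encode proteases that cut aggrecan and versican. The 250 bases before the start of the annotated transcript are shown for *Adamts1*, *Adamts9* and *Adamts16*. These are the called members whose window held no exon of another transcript of the same gene. Windows were not checked for exons of other genes. Each is written 5′ to 3′ on the strand of the gene, and capitals mark matches to a TATA box (TATAAA) or a GC box (GGGCGG) on either strand. The window of *Adamts1* is chr16:85600010-85600259, that of *Adamts9* chr6:92920521-92920770 and that of *Adamts16* chr13:70989936-70990185, all on the minus strand of GRCm39.
Adamts1: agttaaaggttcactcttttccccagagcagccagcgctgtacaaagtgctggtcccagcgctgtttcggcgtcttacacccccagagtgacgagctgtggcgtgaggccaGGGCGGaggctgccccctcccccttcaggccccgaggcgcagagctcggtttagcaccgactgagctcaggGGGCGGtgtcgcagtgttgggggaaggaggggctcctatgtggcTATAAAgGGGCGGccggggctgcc
Adamts9: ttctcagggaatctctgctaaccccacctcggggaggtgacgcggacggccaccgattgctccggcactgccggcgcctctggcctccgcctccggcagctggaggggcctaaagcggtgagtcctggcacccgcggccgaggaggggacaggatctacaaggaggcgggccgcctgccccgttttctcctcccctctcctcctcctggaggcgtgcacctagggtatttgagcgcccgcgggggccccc
Adamts16: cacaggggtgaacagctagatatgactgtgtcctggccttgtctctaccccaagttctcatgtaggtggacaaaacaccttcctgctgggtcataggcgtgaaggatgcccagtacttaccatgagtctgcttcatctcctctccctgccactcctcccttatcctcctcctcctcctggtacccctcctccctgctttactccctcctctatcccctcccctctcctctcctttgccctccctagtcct

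In the window of *Adamts1* a match to TATAAA began at position -24 relative to the transcript start on the strand of the gene, with GC boxes at -139, -68 and -17. Among all 10 members, 2 windows held a match to TATAAA on either strand, against 11.9% of 21770 windows of protein-coding genes. The match of *Adamts5*, at -44, lay on the strand opposite to the gene. A GC box was held by 6 windows, against 36.3%. The windows of *Adamts9* and *Adamts16* held neither motif. None of the 10 windows held an AP-1 site (TGANTCA, in 6.17% of all windows), a cAMP response element (TGACGTCA, 1.69%), an EGR site (GCGTGGGCG, 0.547%), a TEAD site (GGAATG, 12.1%) or a CArG box (1.40%), all searched on both strands. These are matches of letters in 250 bases, and binding was not measured.

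The neighbours both lay higher at day 5, and *Adamts1* alone of the pair passed the fold limit. *Adamts1* was at 163, 189, 167, 171 and 136 TPM in the control libraries, at 147, 201, 157 and 150 TPM at day 1 and at 257, 252, 262 and 256 TPM at day 5. Every day 5 MN library was thus above every control and day 1 MN library, and the day 5 MN libraries differed from each other by less than those of the other groups (SD 4.26 TPM, against 19.0 in controls and 25.2 at day 1). The log2 fold change of *Adamts1* was 0.68 ± 0.09 (SE) at day 5 against control (limma, adjusted p = 0.000806) and 0.65 ± 0.10 against day 1 (adjusted p = 0.00251), and it was 0.03 ± 0.09 at day 1 (adjusted p = 0.948). *Adamts5* was at 154, 175, 164, 162 and 117 TPM in controls, at 152, 142, 143 and 139 TPM at day 1 and at 186, 195, 185 and 181 TPM at day 5. Its day 5 MN libraries also lay above all others, but with a log2 fold change of 0.32 ± 0.09 (limma, adjusted p = 0.0408) it passed on its p-value and missed the fold limit. With 1 library left out in turn, *Adamts5* kept an adjusted p under 0.05 in 4 of 13 limma fits, and the value reached 0.127 without day 5 MN replicate 2. Over all tested genes, 6.12% had an adjusted p under 0.05 at day 5 whatever their fold change. Against day 1 *Adamts5* differed by 0.36 ± 0.09 on the log2 scale (limma, adjusted p = 0.0525), and at day 1 by -0.04 ± 0.09.

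The ratio of *Adamts1* to *Adamts5* TPM within a library was 1.08 ± 0.0523 (SD) in controls, 1.14 ± 0.192 at day 1 and 1.38 ± 0.0601 at day 5. Day 5 MN libraries (1.29 to 1.42) lay above all control libraries (1.02 to 1.16) and overlapped with day 1 MN libraries (0.970 to 1.41). *Adamts1* and *Adamts5* together made up 70.6% to 75.4% of the summed TPM of the 10 members in every library. That sum was 431 ± 51.3 TPM in controls, 423 ± 25.9 at day 1 and 597 ± 9.25 at day 5, and its day 5 range of 586 to 608 lay above the highest control library at 492 and the highest day 1 MN library at 459.

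**Figure D2:**
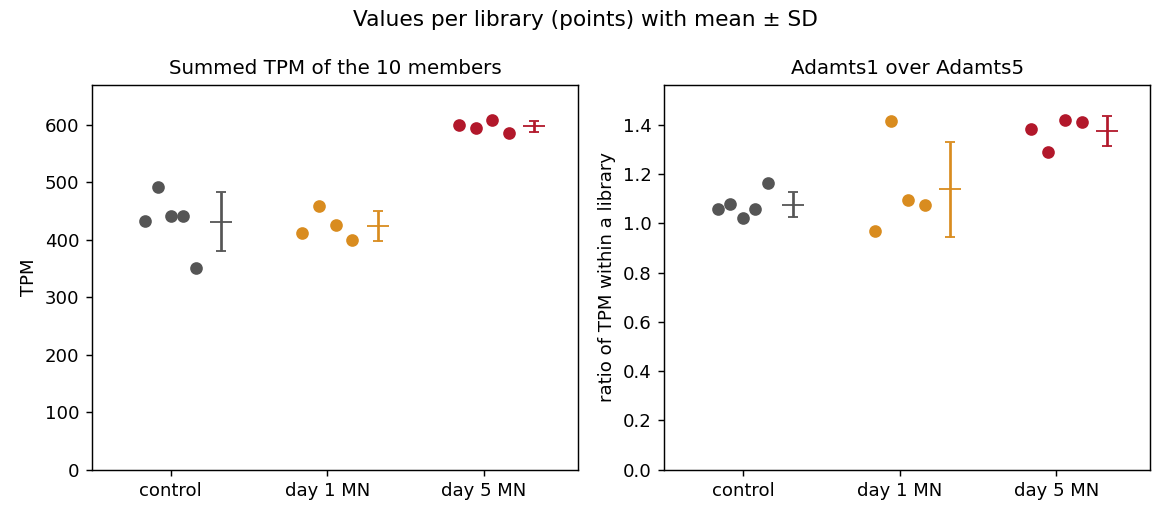
Sum of the TPM of the 10 members (left) and TPM of *Adamts1* divided by TPM of *Adamts5* (right) in each library by group, both axes from 0. Points are libraries and bars give the mean ± SD. The sum at day 5 stands apart from both other groups, and the ratio at day 5 stands apart from controls and overlaps with day 1, where 1 library reaches 1.41.

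*Adamts9* encodes a versican- and aggrecan-cutting protease with a long tail of thrombospondin repeats, on chromosome 6 (92749680 to 92920520, minus strand). It was at 6.57, 6.95, 8.15, 8.21 and 8.71 TPM in controls, at 9.81, 12.5, 12.2 and 10.3 TPM at day 1 and at 16.6, 17.2, 18.7 and 15.8 TPM at day 5. No library of one group reached into the range of another, in the order control, day 1, day 5. The log2 fold change was 1.13 ± 0.11 (SE) at day 5 (limma, adjusted p = 5.47e-05) and 0.58 ± 0.12 from day 1 to day 5 (adjusted p = 0.016). At day 1 it was 0.55 ± 0.11 and did not pass (limma, adjusted p = 0.0982). The call between the days was lost without any 1 of day 1 MN replicates 1 or 4 or day 5 MN replicates 1, 2 or 3, with limma adjusted p between 0.0519 and 0.0643.

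*Adamts15* and *Adamts4*, the other proteases of this group that act on proteoglycans, were at the lower end. *Adamts15* (chromosome 9, 30810451 to 30833863, minus strand) was at 0.858, 0.886, 1.13, 1.03 and 1.04 TPM in controls, at 1.38, 1.31, 2.43 and 1.19 TPM at day 1 and at 0.541, 0.846, 1.26 and 0.949 TPM at day 5. All day 1 MN libraries of *Adamts15* lay above all controls, with a log2 fold change of 0.48 ± 0.21 (limma, adjusted p = 0.387). The day 5 MN libraries overlapped with controls (-0.09 ± 0.21) and the step from day 1 to day 5 was -0.57 ± 0.23 (adjusted p = 0.236), the only step from day 1 to day 5 below -0.5 among the tested members. *Adamts4*, known as aggrecanase-1 (chromosome 1, 171077986 to 171089841, plus strand), was at 0.134, 0.234, 0.297, 0.281 and 0.128 TPM in controls, at 0.401, 0.359, 0.196 and 0.180 TPM at day 1 and at 0.256, 0.539, 0.547 and 0.291 TPM at day 5. Its groups overlapped.

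*Adamts2* encodes the procollagen N-proteinase, which removes the amino-terminal propeptides of fibrillar procollagens, and lies on chromosome 11 (50492787 to 50698400, plus strand). It was at 2.72, 2.98, 2.88, 3.74 and 5.62 TPM in controls, at 2.48, 3.10, 3.28 and 3.13 TPM at day 1 and at 6.29, 4.0, 3.85 and 3.79 TPM at day 5. The day 5 MN libraries lay above all day 1 MN libraries, while controls spanned both. No comparison passed (limma, log2 fold change 0.33 ± 0.22 and adjusted p = 0.439 at day 5, 0.48 ± 0.23 and adjusted p = 0.331 between the days, -0.15 ± 0.22 at day 1).

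*Adamts10*, a protease known for its link to fibrillin microfibrils (chromosome 17, 33742987 to 33772758, plus strand), was at 56.5, 72.0, 49.3, 53.0 and 40.7 TPM in controls, at 43.9, 50.3, 61.2 and 42.8 TPM at day 1 and at 43.3, 46.9, 52.5 and 54.7 TPM at day 5. All groups overlapped, and the log2 fold changes were -0.08 ± 0.13 at day 1 (limma, adjusted p = 0.861), -0.08 ± 0.13 at day 5 (adjusted p = 0.797) and -0.01 ± 0.14 between the days. *Adamts16* (chromosome 13, 70875915 to 70989935, minus strand), named in rodent genetics for blood pressure and kidney traits, was at 26.3, 23.7, 19.8, 21.8 and 18.7 TPM in controls, at 23.8, 16.4, 15.5 and 30.1 TPM at day 1 and at 27.3, 42.0, 41.9 and 32.7 TPM at day 5. Its day 5 MN libraries lay above the controls, the lowest at 27.3 TPM beside the highest control at 26.3 TPM, and overlapped with day 1 MN libraries. The log2 fold change of *Adamts16* was 0.72 ± 0.19 at day 5 (limma, adjusted p = 0.0371), 0.75 ± 0.20 from day 1 to day 5 (adjusted p = 0.0647) and -0.04 ± 0.19 at day 1. The day 5 call of *Adamts16* was lost without any 1 of control replicates 2, 3, 4 or 5 or day 5 MN replicates 2, 3 or 4, with adjusted p between 0.0515 and 0.124, while its log2 fold change stayed between 0.63 and 0.82.

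The ADAMTS-like members have no protease domain. *Adamtsl2*, mutated in human geleophysic dysplasia, a disease of fibrillin microfibrils (chromosome 2, 26949885 to 26998993, plus strand), was at 11.1, 13.2, 15.6, 10.5 and 10.1 TPM in controls, at 15.2, 18.6, 18.9 and 15.7 TPM at day 1 and at 38.8, 23.2, 25.0 and 25.3 TPM at day 5. Day 5 MN libraries lay above all others, and 1 of them, at 38.8 TPM, stood apart from the other day 5 MN libraries. The log2 fold change of *Adamtsl2* was 1.21 ± 0.16 at day 5 (limma, adjusted p = 0.00064), the largest of the tested members. At day 1 it was 0.54 ± 0.16 (adjusted p = 0.246), with 1 control library above the lowest day 1 MN library, and between the days 0.66 ± 0.17 (limma, adjusted p = 0.0638). *Adamtsl4*, linked in humans to displacement of the eye lens (chromosome 3, 95583509 to 95595231, minus strand), was at 10.1, 8.83, 13.2, 9.998 and 11.6 TPM in controls, at 15.4, 13.2, 11.4 and 6.33 TPM at day 1 and at 23.2, 12.6, 17.7 and 15.4 TPM at day 5. Its groups overlapped and no comparison passed, with a log2 fold change of 0.67 ± 0.23 at day 5 (limma, adjusted p = 0.119), of 0.58 ± 0.25 between the days and of 0.09 ± 0.23 at day 1. The locus of *Adamtsl2* overlaps *Mymk* on the opposite strand, and noncoding genes overlap the loci of *Adamts2*, *Adamts9*, *Adamts16* and *Adamtsl4*. Whether the libraries kept strand is not given in the sources used here.

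Counted together, 0 of the 9 tested members were called at day 1, where 0.0908% of all tested genes were called (limma). An unadjusted p under 0.05 was found for 3 members, *Adamts9*, *Adamts15* and *Adamtsl2*, and for 1799 of all 14322 tested genes. The number of genes called at day 1 rests on control replicate 5: 13 of 14322 genes were called with it and 218 of 14257 without it. Libraries of day 1 MN and control did not overlap, with day 1 higher, for 2 members, *Adamts9* and *Adamts15*, and for 0.908% of tested genes. At day 5, 4 of 9 tested members were called, all higher. Of all tested genes 3.21% were called at day 5, and 2.42% were called and higher. The day 5 MN libraries lay wholly above controls for 5 members, *Adamts1*, *Adamts5*, *Adamts9*, *Adamts16* and *Adamtsl2*, and for 5.07% of tested genes. Between day 5 and day 1, 2 members were called, *Adamts1* and *Adamts9*, against 1.81% of tested genes, and 5 had day 5 MN libraries wholly above day 1 MN libraries, against 6.12%. The median log2 fold change of the 9 members was 0.03 at day 1, 0.67 at day 5 and 0.58 between the days, beside medians over all tested genes within 0.01 of 0. The members were chosen with earlier results of these data known. Their counts and medians beside those of all tested genes are therefore descriptive and test nothing about the family.

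**Figure D3:**
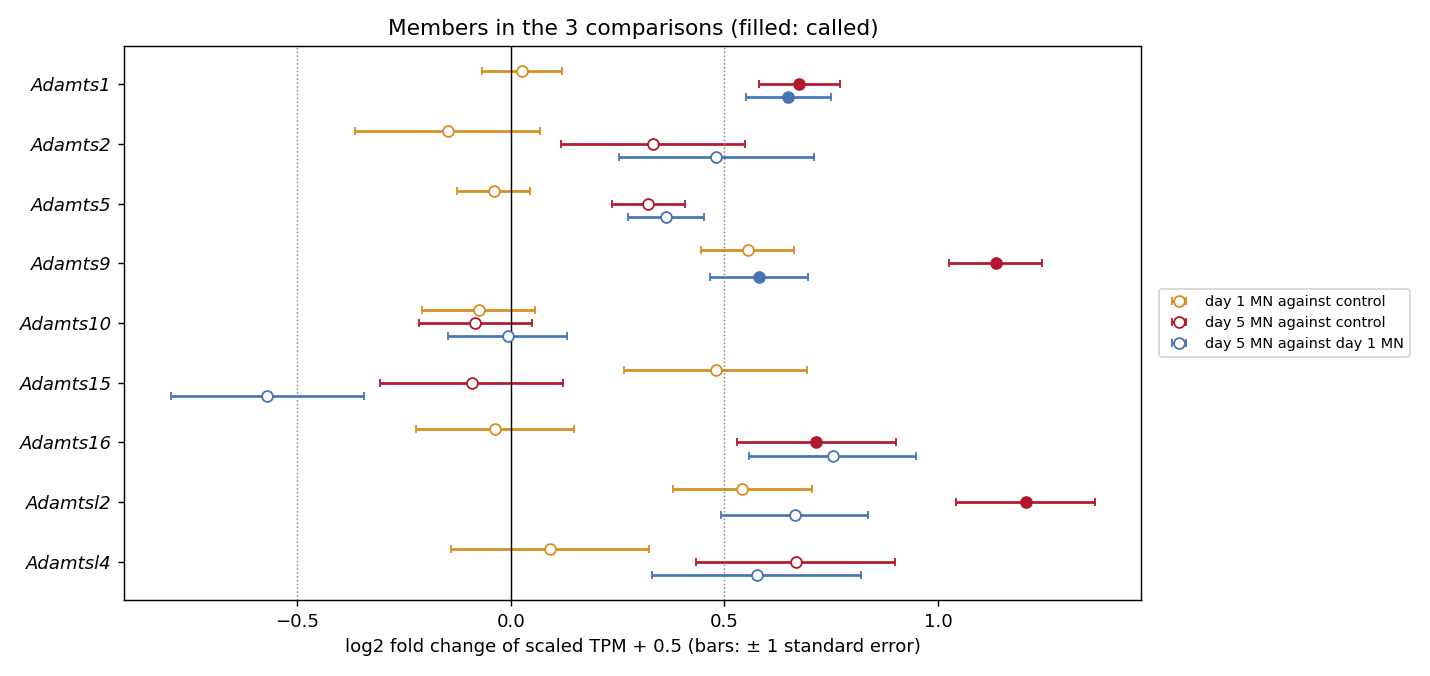
Log2 fold change of scaled TPM + 0.5 (horizontal axis) for the 9 tested members in the comparisons of day 1 MN with control, day 5 MN with control and day 5 MN with day 1 MN. Bars are ± 1 SE from limma, filled points had an adjusted p under 0.05 and a log2 fold change past 0.5 in size, and dotted lines mark that fold limit. Filled points are *Adamts1*, *Adamts9*, *Adamts16* and *Adamtsl2* at day 5, and *Adamts1* and *Adamts9* between the days.

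Genes whose course over the 13 libraries came nearest to a member were ranked by the root mean square difference of centred log2(scaled TPM + 0.5) values. Nearest to *Adamts9* were *Kirrel2* (0.210), *Zwilch* (0.216) and *Tubb6* (0.216). *Kirrel2*, a nephrin-family adhesion gene, was also nearest to *Adamtsl2* (0.183), followed by *Fjx1* (0.204) and *Cldn1* (0.237). It averaged 11.7 TPM in controls, 16.1 at day 1 and 25.3 at day 5. Nearest to *Adamts1* were *Prim2* (0.122), a DNA primase subunit, *Lrch2* (0.128) and *Emp1* (0.129). These distances describe the libraries and were not tested.

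Of 16 other genes of the ADAMTS family, 9 were too low to test, and 0 of the 7 tested were called at either day. Their median log2 fold change was 0.14 at day 5. *Adamts7* averaged 15.4 TPM in controls, 15.6 at day 1 and 16.9 at day 5. *Adamtsl5* and *Adamts12* are named after their values were seen. *Adamtsl5* had the highest level among the other family genes, at 95.3 ± 23.5 TPM in controls and 101 ± 11.7 TPM at day 5, and did not pass. *Adamts12* did not pass either, with day 5 MN libraries (3.51 to 5.46 TPM) above all controls (2.12 to 3.34 TPM) and a log2 fold change of 0.53 (limma, adjusted p = 0.0974).

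Further lists held inhibitors and clearance receptors, fibrillin microfibril genes, substrates, convertases and cofactors, and enzymes that glycosylate thrombospondin repeats. No action between these genes and the members was measured. At day 5, where 3.21% of all tested genes were called, 1 of 5 tested inhibitors and clearance receptors was called. This was *Timp1*, a metalloproteinase inhibitor, at 1.69 ± 0.576 TPM in controls, 2.67 ± 0.666 at day 1 and 3.85 ± 1.58 at day 5, with a log2 fold change of 0.99 ± 0.27 (limma, adjusted p = 0.0475) and libraries that overlapped. *Timp3*, the main inhibitor of several ADAMTS proteases, averaged 1380 TPM in controls and 1518 TPM at day 5, with a log2 fold change of 0.16. Of fibrillin microfibril genes 1 of 8 tested was called, *Ltbp1*, which encodes a latent TGF-beta binding protein and went from 42.9 ± 6.09 TPM to 61.9 ± 5.54 TPM at day 5 (log2 fold change 0.57 ± 0.11, limma, adjusted p = 0.00983). None of 6 tested substrates, 7 convertases and cofactors or 4 enzymes that glycosylate thrombospondin repeats was called at day 5, with median log2 fold changes of 0.28, 0.21 and 0.15. The convertase *Pcsk5* had an adjusted p of 0.0189 (limma) at a log2 fold change of 0.36, under the fold limit, with libraries that overlapped. The microfibril gene *Emilin1* (0.44, limma, adjusted p = 0.036) and the substrate *Bgn* (0.32, adjusted p = 0.0498) also missed only the fold limit at day 5. Their day 5 MN libraries lay above all controls, and both are named after their values were seen. *Vcan* and *Acan*, which encode versican and aggrecan, were too low to test. At day 1, 0 genes of these lists were called.

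**Figure D4:**
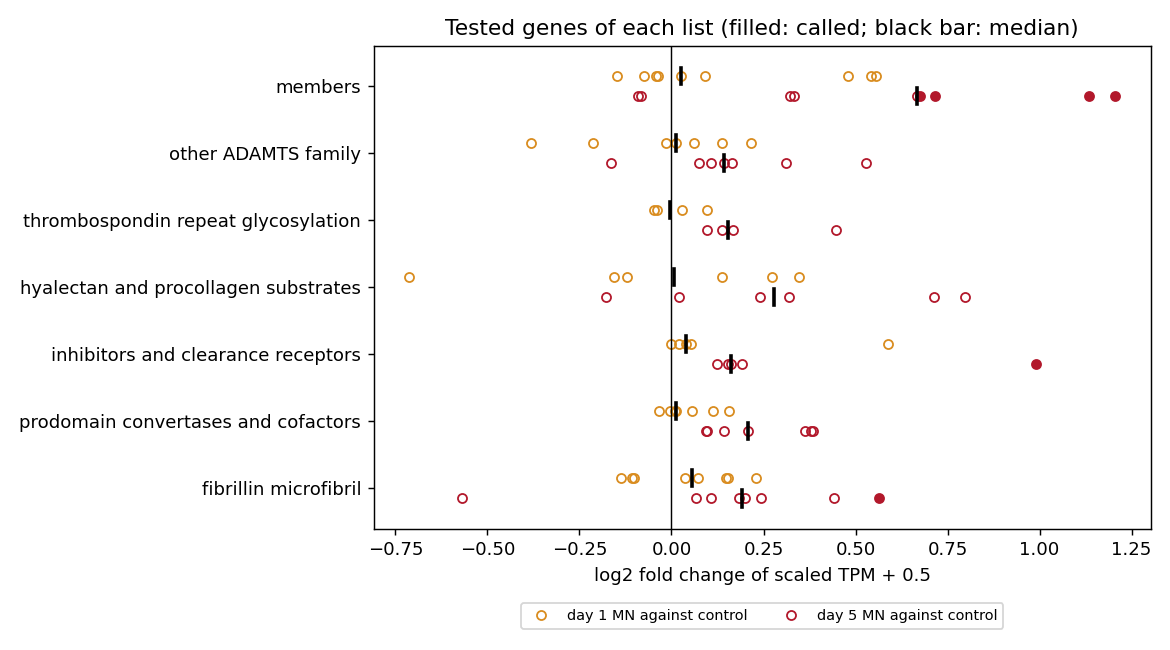
Log2 fold change of scaled TPM + 0.5 against control (horizontal axis) of each tested gene of the members and of the other lists, at day 1 and day 5. Each circle is a gene, filled where called, and black bars are medians. The members' day 5 median of 0.67 lies to the right of the medians of the other lists, which run from 0.14 to 0.28. Members and lists were chosen with earlier results of these data known, and the difference between lists was not tested.

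Markers of the cell types a glomerular preparation can hold were summed beside these results. Podocyte markers summed to 6481 to 8763 TPM in controls, 6864 to 8708 at day 1 and 7199 to 7510 at day 5. Endothelial markers summed to 4516 to 5667, 4387 to 5218 and 5304 to 5640 TPM, and mesangial markers to 1951 to 2733, 2250 to 2450 and 2591 to 2770 TPM. Day 5 MN libraries overlapped with controls in each of these sums. They lay wholly above day 1 MN libraries in the endothelial and mesangial sums, and overlapped with them in the podocyte sum. Parietal epithelial markers were low, at 11.5 to 15.4 TPM in controls, below all MN libraries, which overlapped with each other at 16.6 to 20.8 TPM at day 1 and 18.3 to 22.9 TPM at day 5. Of the 4 parietal markers 3 were tested and 1, *Cldn1*, was called at day 5, as were 3.21% of all tested genes. *Krt19* was at 0 in some libraries. Proximal tubule markers summed to 167 to 570 TPM in controls, 335 to 542 at day 1 and 249 to 356 at day 5, and loop and distal tubule markers to 255 to 515, 493 to 896 and 345 to 477 TPM. Of the 5 loop and distal markers 2, *Calb1* and *Aqp2*, were called lower at day 5 than at day 1 (limma, log2 fold changes -1.39 and -1.30). Of all 14322 tested genes 57 were called lower in that comparison. Day 5 MN libraries lay wholly below day 1 MN libraries for 4 of these markers, and the share of all tested genes that did so was not counted. *Calb1* and *Slc12a3* were higher in every day 1 MN library than in any control, at 34.5 against 12.4 TPM and 108 against 42.5 TPM on average, without passing (limma, adjusted p = 0.0982 and 0.13). Such a separation was found for 0.908% of all tested genes. Smooth muscle and renin cell markers (340 to 636 TPM in controls, 513 to 1027 at day 5), fibroblast markers (51.2 to 102 and 53.2 to 76.3 TPM) and leukocyte markers (7.62 to 14.4 and 12.4 to 18.3 TPM) overlapped. Most of the fibroblast sum was *Pdgfra*, at 65.9 TPM in controls and 58.0 TPM at day 5 on average. *Dcn* (1.05 and 2.08 TPM) and *Col1a1* (1.88 and 3.55 TPM) were higher in every day 5 MN library than in any control. The same held for 5.07% of all tested genes. Neither *Dcn* nor *Col1a1* passed (limma, adjusted p = 0.108 and 0.0641). The part of these cell types in the members' changes was not tested.

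Control replicate 5 held the highest proximal tubule sum of the controls, 570 TPM against 167 to 305 TPM in the others, and the highest parietal sum. Its endothelial, mesangial, smooth muscle and renin cell, fibroblast and leukocyte sums were the lowest of the controls. The mesangial sum was 1951 TPM, against 2399 to 2733 TPM in the others. Its podocyte sum (8656 TPM) and its loop and distal tubule sum lay within the range of the other controls. Control replicate 5 was the lowest control library for 6 members, *Adamts1*, *Adamts4*, *Adamts5*, *Adamts10*, *Adamts16* and *Adamtsl2*, and the highest for 2, *Adamts2* and *Adamts9*. Without it the day 5 calls of *Adamts1*, *Adamts9* and *Adamtsl2* stood, that of *Adamts16* was lost (limma, adjusted p = 0.081), and *Adamts9* was called at day 1 with a log2 fold change of 0.61 (adjusted p = 0.0179), in a fit that called 218 genes at day 1 in place of 13.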

How the data were processed

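Glomerular RNA of 13 mice was sequenced, 1 library per mouse. The authors quantified reads with Kallisto 0.46.2 against GRCm39 after trimming with Trimmomatic 0.39, and deposited TPM per gene symbol (per the submitters' processing notes). TPM are rescaled within each library, which removes read depth, so depth was unknown here and no counting error was attached. Listed TPM summed to 989774 to 996064 per library, and 46.5% to 49.5% of symbols were at 0. No other per-sample columns were present.

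Libraries were put on 1 scale with median-of-ratios factors of 0.954 to 1.04, and values were taken as log2(scaled TPM + 0.5). Adding 0.5 understates the change of low genes. The filter kept genes that reached 1 TPM in 4 or more libraries. The test was limma 3.58.1 (R 4.3.3; all groups in 1 fit, eBayes with trend), p-values were adjusted per contrast by Benjamini-Hochberg, and the procedure was tested on simulated data. Calls needed an adjusted p under 0.05 and a log2 fold change past 0.5 in size. Nothing beyond separate mice is stated about batches, and p-values measure the spread between mice. The members and gene lists were chosen with earlier results of these data known. Named genes were all members, called genes of the other lists with up to 4 further genes per list, and the 3 genes nearest to *Adamts9*, *Adamtsl2* and *Adamts1*. Windows of 250 bases and loci come from the GENCODE annotation of GRCm39. Plots were drawn with matplotlib 3.10.9. Some items are not reported here.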

Additional observations from a re-analysis of the deposited data

Results flagged for a closer look

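Within groups of 4 or 5 libraries, 3 values, from 2 libraries, stood far from the others of their group in the TPM of a member, out of 36 groups examined over 12 named genes; chance flags about 1 in 20 groups. *Adamts2* was at 6.29 TPM in day 5 MN replicate 1, *Adamtsl2* was at 38.8 TPM in the same library, and *Adamts15* was at 2.43 TPM in day 1 MN replicate 3. The change from control differed between the days, by limma's test of day 5 against day 1, for *Adamts1* (log2 difference 0.65) and *Adamts9* (log2 difference 0.58).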

How the results depend on the processing

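The day 5 calls of *Adamts1*, *Adamts9* and *Adamtsl2* held in all 13 fits that left out 1 library and in all other alternatives, and between 3 and 5 members were called at day 5. The adjusted p of *Adamts5* at day 5 was under 0.05 in 4 of 13 fits without 1 library and in 5 of 10 others. The call of *Adamts16* was lost with unscaled TPM (limma, adjusted p = 0.0538), no filter (0.073), no trend (0.0545) and the replicate block (0.133). At day 1 the number of members called was 0, and 1 with the replicate number as a block (*Adamts9*, log2 fold change 0.61, adjusted p = 0.0391), a fit to which control replicate 5 adds nothing because no other group has that number. Over all tested genes the block called 149 at day 1 in place of 13. Leaving out 1 library gave 0 to 1 at day 1 and 1 to 2 between the days. Libraries with the same number did not deviate together (correlations -0.0562 to 0.0913 over 12 pairs), so the block is not a pairing, and it changed no other call of a member against control. *Adamts16* was called between the days with array weights (adjusted p = 0.0478). Without day 1 MN replicate 4, *Adamts16* was called between the days (log2 fold change 0.93, adjusted p = 0.0162) and *Adamtsl4* was called at day 5 (adjusted p = 0.0436). Of 618 single values under an alternative, 578 kept direction and call, 16 lost a call, 5 gained one and 19 changed sign. The sign changes were *Adamts1* at day 1 (-0.020 unscaled, -0.029 with the block), *Adamts2* at day 1 (0.020 with the block) and *Adamts10* between the days (0.00294 unscaled, 0.022 with weights). Leaving out 1 library gave -0.084 to 0.071 for *Adamts1* at day 1, -0.22 to 0.021 for *Adamts2* at day 1, -0.17 to 0.024 at day 1, -0.17 to 0.015 at day 5 and -0.073 to 0.088 between the days for *Adamts10*, -0.20 to 0.031 for *Adamts15* at day 5, and -0.22 to 0.11 and -0.064 to 0.34 for *Adamts16* and *Adamtsl4* at day 1. The cause was not tested. *Adamts15* has no value with a TPM of at least 1 required in every library. Depth was unknown, which limits low genes such as *Adamts4* and *Adamts15* most.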

Other observations

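Without a filter on low values *Adamts4* could be fitted, and its log2 fold changes were 0.15 ± 0.14 (SE) at day 1 (limma, adjusted p = 0.762), 0.35 ± 0.14 at day 5 (adjusted p = 0.257) and 0.20 ± 0.14 between the days (adjusted p = 0.669). *Col1a1*, a procollagen chain cut by the product of *Adamts2*, averaged 1.88 TPM in controls and 3.55 TPM at day 5 with libraries that did not overlap, and *Col1a2*, the partner chain, averaged 110 TPM and 94.4 TPM with day 5 MN libraries below all controls. Neither passed (limma, adjusted p = 0.0641 and 0.315 at day 5).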
